A study of Homo sapiens with 6 samples.

Results

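Keratin genes of HK2 cells, an immortalized proximal tubule line from human kidney, were followed in 6 RNA-seq samples. The genes described are 10 keratins chosen by name out of the 38100 genes of the count table, namely KRT7, KRT8, KRT10, KRT15, KRT17, KRT18, KRT19, KRT34, KRT80 and KRT81. Wild-type HK2 cells carried either an adenovirus for SIRT4 (AdSirt4) or an empty adenovirus (AdCtrl), with 3 samples in each group, and every sample was stimulated with TGF-β1. SIRT4 is a sirtuin best known from mitochondria, and the comparison asked what its overexpression does to gene expression under TGF-β1. Unstimulated cells are not analysed here, so a response of keratins to TGF-β1 itself was not measured. The cell-line label counts upward from sample to sample although the titles all say HK2, and all samples were taken to be HK2. The study states that n in its experiments in vitro means technical replicates, so the SDs and p-values may describe technical spread only.

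Keratins are the intermediate filament proteins of epithelial cells. A type I (acidic) keratin pairs with a type II (neutral to basic) keratin, and the pairs assemble into filaments that are anchored at desmosomes through plakin proteins. KRT8 (type II) and KRT18 (type I) are the primary pair of simple epithelia, KRT7 and KRT19 join them in ducts and in many cultured or injured tubular cells, and KRT10, KRT15 and KRT17 are better known from stratified epithelia. KRT34 and KRT81 are hair keratins, and KRT80 is a type II keratin found in several epithelia. TGF-β1 is a known inducer of the loss of epithelial features in tubular cells, in which keratin filaments can give way to vimentin.

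The end of the keratin rod domain is a conserved hallmark of the family, and it is shown for 3 type I genes to let a reader see how like and unlike their coding sequence is there. The coding bases were taken from GENCODE 29 transcripts (GRCh38). Capitals mark the 30 bases of the conserved motif at the rod end, and lower case marks the 15 bases before it.
KRT18: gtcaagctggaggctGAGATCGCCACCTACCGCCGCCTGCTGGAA
KRT19: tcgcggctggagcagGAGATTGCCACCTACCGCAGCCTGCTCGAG
KRT10: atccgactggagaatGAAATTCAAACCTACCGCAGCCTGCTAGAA

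The stretch lies in exon 6 of each of these genes. It is at chr12:52952281-52952325 on the plus strand in KRT18. In KRT19 it is at chr17:41523791-41523835 and in KRT10 at chr17:40819528-40819572, both on the minus strand. KRT18 and KRT19 had 33 of the 45 bases in common, KRT10 and KRT19 had 33, and KRT10 and KRT18 had 32.

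HK2 cells in both groups expressed the simple-epithelial keratins. KRT8 and KRT18 made up most of the keratin mRNA, KRT80, KRT19, KRT7 and KRT10 followed at lower levels, and the remaining 4 genes were far lower, with KRT17 at the limit of detection. With all 6 samples weighted alike, edgeR called none of the 9 keratins that could be tested between AdSirt4 and AdCtrl. This fit called only 2 of 17720 genes, so the absence of a keratin call says little about differences of moderate size. One AdSirt4 sample, replicate 1, stood apart from replicates 2 and 3 over all genes, with a chi-square of counts of 169 and 213 per gene. Between replicates 2 and 3 it was 16.4. Most keratins differed in replicate 1 too. Without it, KRT80 was higher in AdSirt4 (log2 fold change 0.33, SE 0.051, n = 3 AdCtrl and 2 AdSirt4 samples, edgeR adjusted p = 0.00677). No other keratin passed the threshold in this fit, which called 6.71% of all genes. In KRT80 the sample left out was the only AdSirt4 value below AdCtrl, so this p-value is a description and no support. KRT80 was called too with all 6 samples and quality weights in limma voom, where 8.74% of all genes were called. Such weights can count a deviating sample less, so this is not independent of leaving replicate 1 out. For 9 keratins, 1 call is close to both shares. With the length trend of every library removed KRT80 was not called (edgeR adjusted p = 0.587).

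Total counts ranged from 41537353 to 85684748 per sample. SIRT4 had 31 to 57 counts in AdCtrl and 1996 to 7995 in AdSirt4, a log2 fold change of 6.36 (edgeR adjusted p = 0.00801). Over the alternative fits the adjusted p of SIRT4 reached 0.203, so even this difference was not called in all of them. The counts cannot tell the transcript of the virus from that of the cells. The lowest SIRT4 level in AdSirt4 was in replicate 1, at 51.2 CPM (counts scaled to library size, per 1e6 counts) against 92.7 and 84.0 CPM in replicates 2 and 3. In that sample the levels of genes relative to the group mean also fell with transcript length, with a Spearman correlation across genes of -0.57, against 0.49 and 0.54 in the other AdSirt4 samples and -0.14 to 0.17 in AdCtrl. Within a group of 3 samples the deviations of a gene sum to 0, so a trend in 1 sample pushes the others the opposite way. The values of replicates 2 and 3 can therefore not be read as trends of their own. Genes are not independent replicates, and this is a description of the library.

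The order of the keratins was taken from FPKM, which divides by gene length. In AdCtrl, KRT8 had 411 ± 12.2 FPKM (SD, n = 3) and KRT18 had 212 ± 10.3, followed by KRT80 with 52.4 ± 3.07, KRT19 with 25.1 ± 1.60, KRT7 with 22.3 ± 1.72 and KRT10 with 10.9 ± 1.38. In AdSirt4 the same 6 genes had 426 ± 64.0, 230 ± 45.5, 58.5 ± 13.4, 26.8 ± 7.23, 24.9 ± 2.75 and 12.5 ± 2.96 FPKM in that order. KRT19 and KRT7 were neighbours whose samples overlapped in both groups, while the other neighbours among these 6 genes were separated in every sample. KRT15 had 0.388 ± 0.050 FPKM in AdCtrl and 0.267 ± 0.093 in AdSirt4. KRT34, with 0.106 ± 0.054 and 0.121 ± 0.018, and KRT17, with 0.0153 ± 0.0133 and 0.0222 ± 0.0237, were at the bottom of the order. The FPKM of KRT81 cannot be placed in it, because the deposited counts and FPKM together imply a length of 21526 bases for this gene while its longest annotated transcript has 1929.

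**Figure D1:**
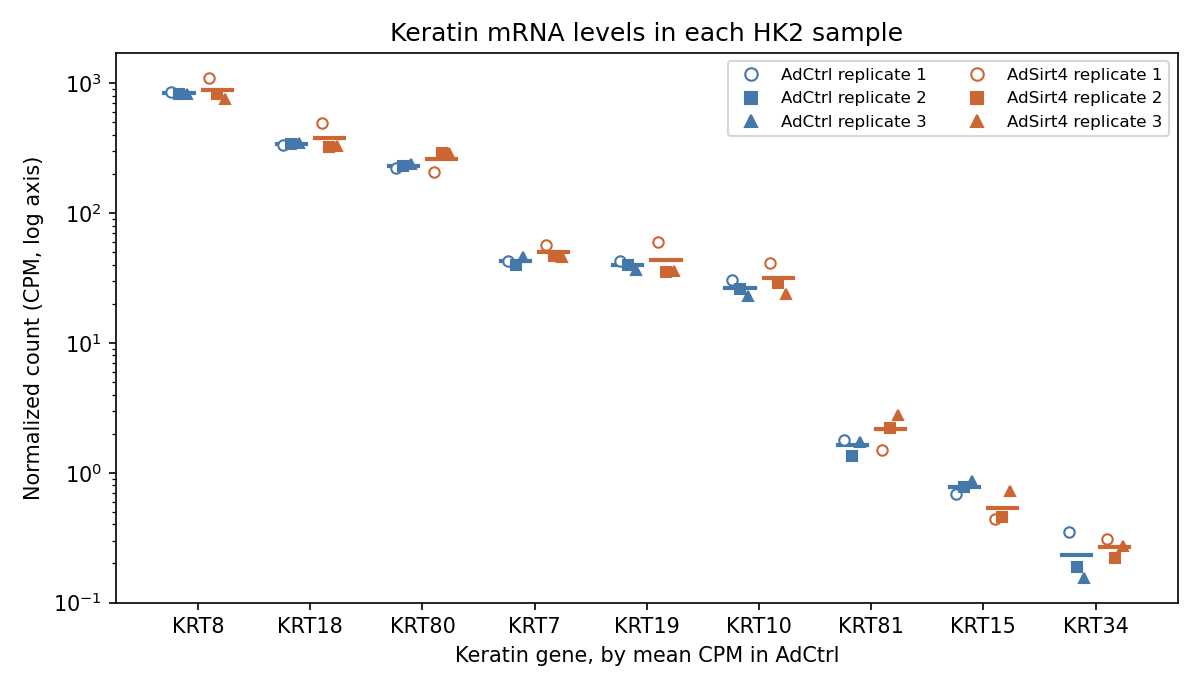
Normalized counts (CPM, log axis) of 9 keratins in each of the 6 samples, with horizontal lines at the group means. KRT17 is left out because 2 of its samples were at 0. KRT8 lies between 751 and 1095 CPM in every sample, and the open orange circles (AdSirt4 replicate 1) are the highest value for KRT8, KRT18, KRT7, KRT19 and KRT10.

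Of the 17720 genes tested, 2 (0.0113%) had an adjusted p under 0.05, SIRT4 itself and ADAMTS1, a secreted metalloprotease named here after its value was seen. None of the 9 keratins tested was among them. At an unadjusted p under 0.05, edgeR called 1406 genes (7.93%) and again none of the 9 keratins. DESeq2 called 212 genes, also without a keratin. Samples of the 2 groups did not overlap in 3443 genes (19.4%), and in 1 of the 9 keratins, KRT7, a share not above that of all genes. The fold change was above 0 in 8 keratins and below 0 in 1, with a median log2 value of 0.16, against 0.02 over all genes tested. Without AdSirt4 replicate 1 there were 4 above 0 and 5 below, with a median of -0.012, so this tally rests on that library. Lower mRNA per cell and fewer cells of a type cannot be told apart in such bulk samples.

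Among the type II keratins, KRT8 was by far the most abundant. Replicates 1, 2 and 3 of AdCtrl had 851.5, 829.1 and 819.3 CPM of it, and those of AdSirt4 had 1095, 824.4 and 750.7 CPM. The AdSirt4 samples thus held both the highest and the lowest value, and the groups overlapped. KRT8 had a log2 fold change of 0.09 (SE 0.16, edgeR adjusted p = 0.858), with a 95% interval from 0.818-fold to 1.39-fold.

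KRT7, the partner of KRT19 in ducts, was at 42.3, 39.6 and 45.7 CPM in AdCtrl. In AdSirt4 it was at 56.4, 46.8 and 45.9 CPM. All AdSirt4 samples were above all AdCtrl samples, but the lowest AdSirt4 value and the highest AdCtrl value were nearly equal. In FPKM the groups overlapped, at 22.0, 20.7 and 24.1 in AdCtrl and 28.1, 23.5 and 23.1 in AdSirt4. Its log2 fold change was 0.22 (SE 0.12, 95% interval -0.05 to 0.50, edgeR adjusted p = 0.696). A two-sided exact permutation test of the CPM gave p = 0.1, the smallest that 3 samples against 3 allow. Leaving out single samples gave log2 fold changes of 0.12 to 0.28, the lowest without AdSirt4 replicate 1, and removing the length trend gave 0.13.

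KRT80 was at 222.7, 231.2 and 238.0 CPM in AdCtrl, a narrow range. In AdSirt4 it was at 205.4 CPM in replicate 1 and at 290.9 and 289.6 CPM in replicates 2 and 3. Replicate 1 was below every AdCtrl sample, and the other two were above every one. KRT80 had a log2 fold change of 0.18 over all 6 samples (SE 0.15, 95% interval -0.18 to 0.54, edgeR adjusted p = 0.764). Without replicate 1 of AdSirt4 it was 0.33 (95% interval 0.21 to 0.44), and without replicate 2 or 3 it was 0.11.

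The hair keratin KRT81 was at 1.79, 1.34 and 1.73 CPM in AdCtrl and at 1.49, 2.22 and 2.78 CPM in AdSirt4. As in KRT80, replicate 1 was the lowest AdSirt4 sample, and the groups overlapped because of it. KRT81 had a log2 fold change of 0.42 (SE 0.26, 95% interval -0.20 to 1.047, edgeR adjusted p = 0.721). Without AdSirt4 replicate 1 it was 0.61 (95% interval 0.17 to 1.048, edgeR adjusted p = 0.0908), and it was 0.20 without AdSirt4 replicate 3.

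Among the type I keratins, KRT18, the partner of KRT8, was at 333.6, 336.7 and 345.3 CPM in AdCtrl. It was at 489.4 CPM in replicate 1 of AdSirt4 and at 320.0 and 326.4 CPM in replicates 2 and 3. Replicate 1 was the highest of the 6 samples, while the other two AdSirt4 samples were below every AdCtrl sample. The estimated log2 fold change of KRT18 was 0.16 (SE 0.18, edgeR adjusted p = 0.799), with a 95% interval from 0.832-fold to 1.502-fold. It was -0.07 without replicate 1 (edgeR adjusted p = 0.402).

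KRT19, which lacks most of the tail domain of other keratins, had the same arrangement of samples. It was at 42.6, 39.5 and 36.5 CPM in AdCtrl and at 60.0, 35.0 and 35.8 CPM in AdSirt4. Its log2 fold change was 0.14 over all samples (SE 0.22, 95% interval -0.38 to 0.66, edgeR adjusted p = 0.846). Without AdSirt4 replicate 1 it was -0.16 (95% interval -0.32 to -0.0043, edgeR adjusted p = 0.195), so its direction rested on that sample.

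KRT10, a keratin of differentiating skin layers, was at 30.3, 26.0 and 22.9 CPM in AdCtrl and at 41.4, 28.8 and 23.7 CPM in AdSirt4. The groups overlapped, with a log2 fold change of 0.24 (SE 0.22, edgeR adjusted p = 0.773). Within each replicate number the AdSirt4 sample was the higher one, and the blocked fit gave 0.22 (replicate number as block, edgeR adjusted p = 0.699). It was -0.01 without replicate 1 of AdSirt4.

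KRT15, a basal keratin of stratified epithelia, was the keratin whose fold change was below 0. It was at 0.684, 0.777 and 0.856 CPM in AdCtrl and at 0.436, 0.452 and 0.726 CPM in AdSirt4, from 17 to 59 counts per sample. The highest AdSirt4 sample reached into the AdCtrl range, while within each replicate number the AdSirt4 sample was the lower one. KRT15 had a log2 fold change of -0.50 (SE 0.29, 95% interval -1.19 to 0.18, edgeR adjusted p = 0.708), which ranged from -0.79 (without AdSirt4 replicate 3) to -0.37 when single samples were left out. With the replicate block it was -0.54 (edgeR adjusted p = 0.694).

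The remaining type I keratins were too scarce for a difference of moderate size to be detectable. KRT34, a hair keratin, had 19, 8 and 8 counts in AdCtrl and 12, 19 and 22 in AdSirt4. Its log2 fold change of 0.16 had a 95% interval from -0.80 to 1.13 (edgeR adjusted p = 0.899). KRT17, an injury-associated keratin of stratified epithelia, had 2, 2 and 0 counts in AdCtrl and 4, 3 and 0 in AdSirt4 and was not tested. The samples at 0 allow a level of up to 3 counts, or 0.0598 CPM in AdCtrl replicate 3 and 0.0375 CPM in AdSirt4 replicate 3, as far as counting error goes.

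**Figure D2:**
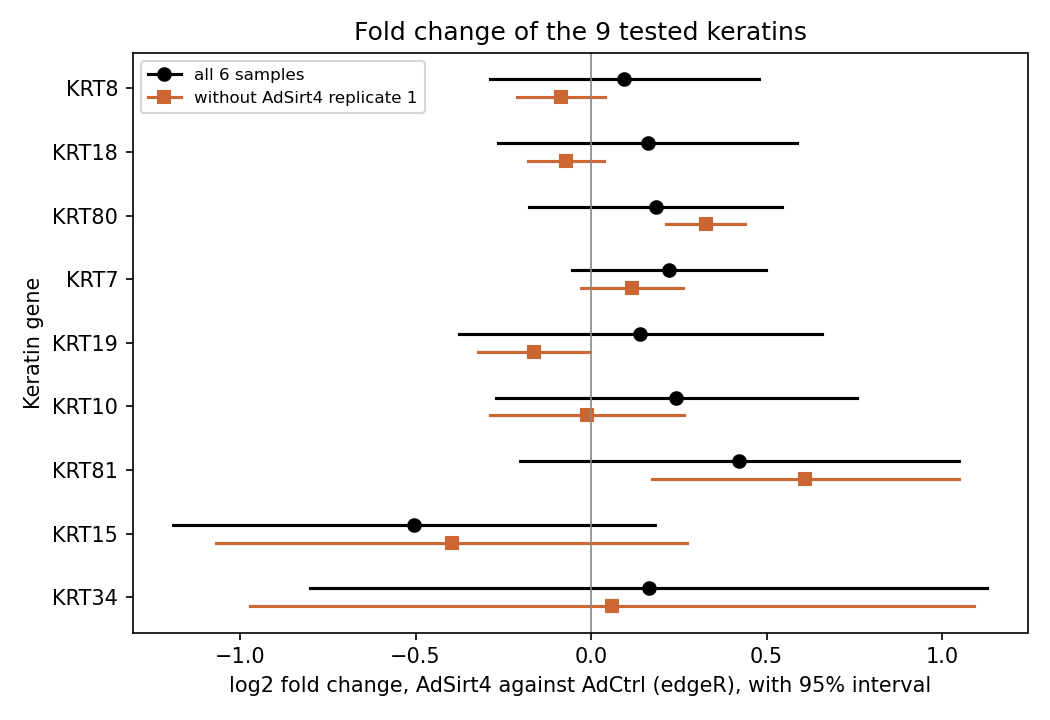
The log2 fold change of each tested keratin, AdSirt4 against AdCtrl, with its 95% interval from edgeR, for all 6 samples (black circles) and without AdSirt4 replicate 1 (orange squares). With all samples every interval includes 0, and without replicate 1 those of KRT80 (0.21 to 0.44), KRT81 and KRT19 do not. Of these KRT80 passes the adjusted threshold, in a fit that called 6.71% of all genes.

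Replicate 1 of AdSirt4 was compared with the mean of replicates 2 and 3 on the log2 CPM scale. KRT19 was higher in it by 0.76, KRT10 by 0.66, KRT18 by 0.60, KRT8 by 0.48 and KRT7 by 0.28, while KRT81 differed by -0.74, KRT80 by -0.50 and KRT15 by -0.39. The trend that all genes of the same transcript length followed in this sample gave smaller differences for most of them, with 0.42 for KRT19, 0.24 for KRT10, 0.25 for KRT18, 0.10 for KRT8 and -0.05 for KRT80. For KRT7 the trend was 0.33, close to the measured value, and for KRT81 it was 0.28, of the opposite sign. The trend was read at the longest annotated transcript, 1929 bases for KRT81 and 5237 for KRT15. Counts and FPKM imply 21526 and 2011 bases for them, so their trend values, sign included, are uncertain. The part of transcript length, RNA quality or the lower SIRT4 level in these differences was not tested. With the length trend of every library removed, no keratin had an adjusted p under 0.05 in edgeR, and KRT80 had a log2 fold change of 0.19 (adjusted p = 0.587).

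**Figure D3:**
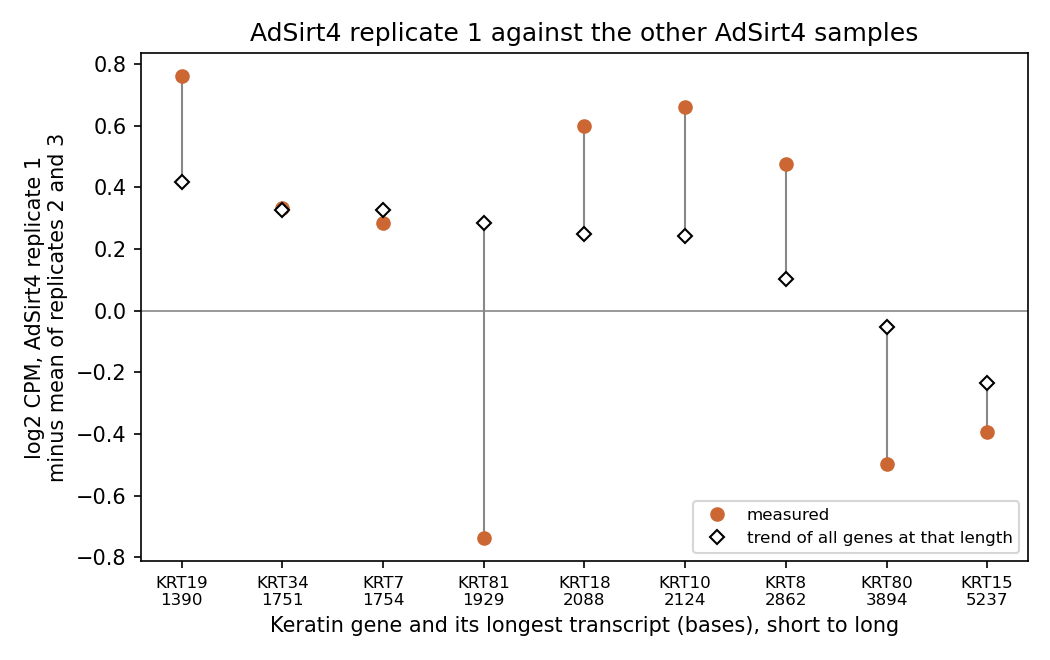
Difference in log2 CPM between AdSirt4 replicate 1 and the mean of AdSirt4 replicates 2 and 3 for 9 keratins (orange), beside the trend of all genes at the same transcript length (diamonds), ordered from short to long transcripts. The measured values run from -0.74 for KRT81 to 0.76 for KRT19. The length used is the longest annotated transcript, which for KRT81 and KRT15 is far from the length that counts and FPKM imply.

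Without AdSirt4 replicate 1, edgeR called 1227 of 18287 genes (6.71%), and among them 1 of the 9 keratins, KRT80. AdSirt4 then had 2 samples. The groups did not overlap in 7581 genes (41.5%) and in 5 of the 9 keratins. KRT7, KRT80 and KRT81 were higher in both remaining AdSirt4 samples than in all AdCtrl samples, and KRT18 and KRT19 were lower in both. When all samples were kept but weighted by their quality in limma voom, 1549 of 17720 genes (8.74%) were called, among them again KRT80 alone of the 9 keratins (log2 fold change 0.33, SE 0.061, adjusted p = 0.00988). Quality weights can count a deviating sample less, so the 2 fits are not independent of each other. With 9 keratins tested, 1 call is a share close to both backgrounds. The adjusted p of KRT80 ranged from 0.00677 to 0.971 over the alternatives.

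The balance between keratins was examined as ratios within a library, which do not depend on how libraries were scaled. The ratio of KRT8 to KRT18 counts was 2.55, 2.46 and 2.37 in AdCtrl and 2.24, 2.58 and 2.30 in AdSirt4. The AdSirt4 range held that of AdCtrl, with means of 2.46 ± 0.0899 and 2.37 ± 0.180 (SD, n = 3, two-sided exact permutation p = 0.5). Per length, as FPKM, KRT8 was 1.94 ± 0.0706 times KRT18 in AdCtrl and 1.87 ± 0.141 times in AdSirt4.

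The ratio of KRT7 to KRT19 counts was 1.08 ± 0.147 in AdCtrl and 1.18 ± 0.214 in AdSirt4, and that of KRT80 to KRT7 was 5.44 ± 0.352 and 5.39 ± 1.52 (SD, n = 3). In KRT80 to KRT7 the wide SD of AdSirt4 came from replicate 1, at 3.64 against 6.22 and 6.31. The ratio of KRT18 to VIM (vimentin, the intermediate filament of mesenchymal cells) was 0.496 ± 0.0205 in AdCtrl and 0.456 ± 0.0420 in AdSirt4. The largest ratio difference was that of KRT15 to KRT18, with a log2 value of -0.69 that ranged from -1.02 to -0.36 with single samples left out (exact permutation p = 0.2 over all samples). Single samples also moved the log2 difference of KRT7 to KRT19 between 0.026 and 0.28, of KRT8 to KRT18 between -0.12 and -0.016 and of KRT18 to VIM between -0.19 and -0.06. In all 8 ratios compared the groups overlapped, and the Benjamini-Hochberg adjusted p of the exact permutation tests was between 0.8 and 1.

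The 10 keratins together had 1526, 1504 and 1510.5 CPM in AdCtrl, a spread of 11.0 CPM (SD). They had 1950, 1549 and 1476 CPM in AdSirt4, where replicate 1 stood far above the other two. The difference between the group means of the log2 sums was 0.12 (two-sided exact permutation p = 0.6) and -0.0017 without that sample. The type I keratins, mainly KRT18, summed to 592 CPM in AdSirt4 replicate 1, against 384.5 and 387 CPM in the other AdSirt4 samples and 403 to 407.5 CPM in AdCtrl. The sum of type II keratins was 1358 CPM against 1164 and 1089 in the other AdSirt4 samples and 1101 to 1118 CPM in AdCtrl.

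**Figure D4:**
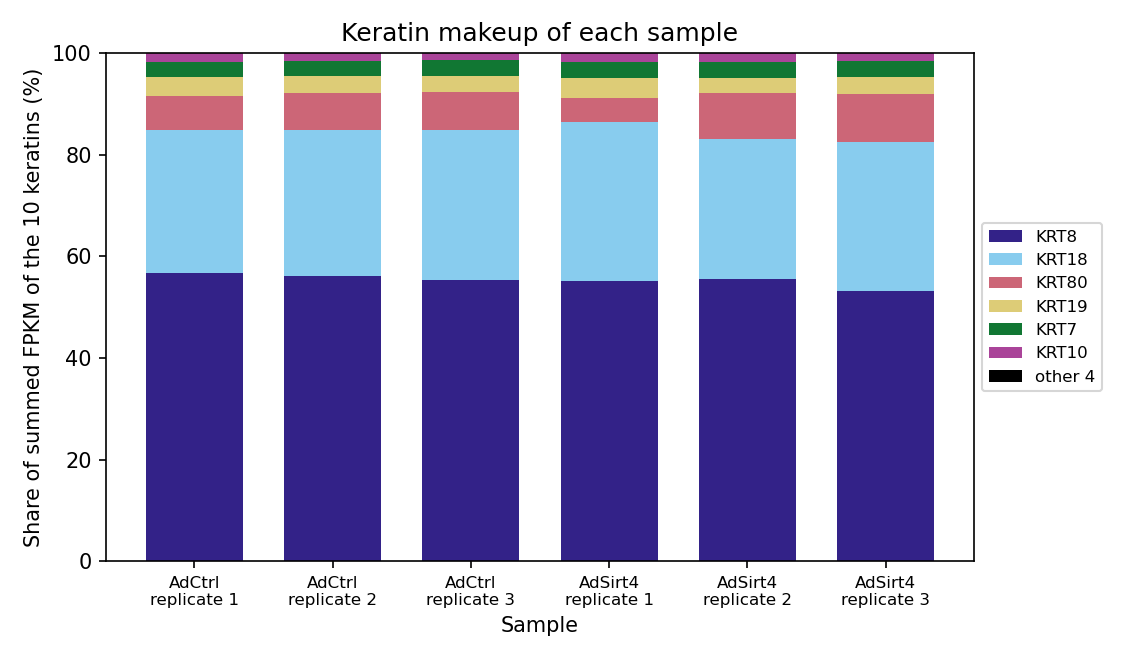
Share of each keratin in the summed FPKM of the 10 keratins, in percent, for each sample. KRT8 takes 53.2% to 56.6% of the sum in the 6 samples and KRT18 27.4% to 31.3%, while the share of KRT80 is 4.76% in AdSirt4 replicate 1 and 6.81% to 9.44% in the others.

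In the makeup of keratin FPKM, KRT8 took 56.0% ± 0.668 (SD, n = 3) in AdCtrl and 54.7% ± 1.29 in AdSirt4, and KRT18 took 28.9% ± 0.708 and 29.3% ± 1.94. KRT80 took 7.13% ± 0.293 in AdCtrl. In AdSirt4 its share was 7.74% ± 2.59, a wider spread that again came from replicate 1. KRT19, KRT7 and KRT10 held between 1.29% and 3.90% each in every sample. The shares of all 10 keratins overlapped between the groups.

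The other keratin genes were close to silent. Of 45 further keratin genes in the table, 22 had 0 counts in every sample, 19 had fewer than 10 counts in every sample, and 4 (KRT20, KRT78, KRT79 and KRT86) reached 10 in some sample. Their counts summed to 566 over the 6 samples, against 553479 for the 10 members. None had a mean of 1 CPM or more in either group. KRT20, KRT78 and KRT86 could be tested and none was called (edgeR adjusted p between 0.8503 and 0.899).

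Some of the members share sequence with other genes. Of the stretches of 50 bases in the transcript used, 41.3% were also found in transcripts of other genes for KRT8, mostly processed pseudogenes such as KRT8P3, and 31.8% for KRT18. For KRT81 the share was 44.6%, chiefly with its neighbour KRT86. It was 17.4% for KRT17 and 11.4% for KRT34, and 1.8% or less for KRT7, KRT10, KRT15, KRT19 and KRT80. The count table holds no KRT8 or KRT18 pseudogene under the names KRT8P or KRT18P, so how such reads were assigned cannot be read from it, and the levels of KRT8, KRT18 and KRT81 are uncertain to that extent.

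The genes of KRT8 (chr12:52897187-52949954, minus strand) and KRT18 (chr12:52948871-52952901, plus strand) overlap at their starts, and reads there cannot be told apart without strand. KRT7 (chr12:52232520-52252186, plus strand) is overlapped on the opposite strand by KRT7-AS, an antisense RNA looked at for that reason. KRT7-AS was at 0.573, 0.636 and 0.564 CPM in AdCtrl and at 0.898, 1.40 and 0.935 CPM in AdSirt4. Its groups did not overlap, as in 19.4% of all genes tested, with a log2 fold change of 0.88 (SE 0.26, edgeR adjusted p = 0.533). Over the alternatives its adjusted p ranged from 0.0199, in limma voom with quality weights, to 0.971. KRT10 (chr17:40818117-40822595, minus strand) is overlapped by KRT10-AS1, which had a log2 fold change of 0.39 (edgeR adjusted p = 0.693) and of 0.15 without AdSirt4 replicate 1. On the opposite strand, KRT80 is overlapped by LINC00592, KRT81 by KRT86, and KRT7 by KRT87P as well. KRT86 also overlaps KRT7 on the same strand. Whether the sequencing kept strand is not stated, and the part of overlapping genes in the reads of KRT7, KRT10, KRT80 and KRT81 was not tested.

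Genes that anchor keratin filaments or share their functions were taken as 3 lists, chosen with earlier results of these data known. No gene of the lists was called by edgeR with all samples. Among 20 desmosome and plakin genes 16 could be tested, 5 with a fold change above 0 and 11 below, with a median log2 value of -0.11 against 0.02 over all genes. The median was 0.06 without AdSirt4 replicate 1. JUP (plakoglobin, which links desmosomal cadherins to the plaque) was at 91.2, 96.5 and 96.2 CPM in AdCtrl and at 122.8, 118.9 and 113.9 CPM in AdSirt4. These groups did not overlap, as in 4 of the 16 tested genes of this list and 19.4% of all genes. The log2 fold change of JUP was 0.33 (SE 0.086, edgeR adjusted p = 0.494). JUP was called by edgeR without AdSirt4 replicate 1 (0.29, adjusted p = 0.0116).

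PERP, a membrane protein of desmosomes, was at 98.9, 95.4 and 94.1 CPM in AdCtrl and at 141.3, 114.5 and 108.7 CPM in AdSirt4, again without overlap. Its log2 fold change was 0.34 (SE 0.12, edgeR adjusted p = 0.600). PPL (periplakin, which links keratin filaments to desmosomes) was lower in every AdSirt4 sample, at 13.2, 21.2 and 22.9 CPM against 26.5, 25.3 and 26.0 CPM. Its log2 fold change was -0.44 (SE 0.20, edgeR adjusted p = 0.657). Without AdSirt4 replicate 1 it was -0.24, and that of PERP was 0.21. In that fit, which called 6.71% of all genes, edgeR called 4 of the 16 genes of this list, all higher, namely JUP, PERP, PLEC (plectin) and EPPK1 (epiplakin, a keratin-binding plakin). PLEC had a log2 fold change of 0.22 there and of -0.04 with all samples. EPPK1 had 0.59 there and 0.39 with all samples (edgeR adjusted p = 0.702). In PLEC and EPPK1 the sample left out was the only AdSirt4 value below AdCtrl, so their calls are a description and no support. PLEC and EPPK1 are named here after their values were seen.

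Of the 13 other intermediate filament genes 10 could be tested, 6 with a fold change above 0 and 4 below, with a median of 0.08 that was -0.00089 without AdSirt4 replicate 1. VIM was at 699.1, 683.5 and 666.9 CPM in AdCtrl and at 980.5, 770.5 and 720.9 CPM in AdSirt4. Every AdSirt4 sample was above every AdCtrl sample. The groups did not overlap in 3 of the 10 tested genes of this list, against 19.4% of all genes. The log2 fold change of VIM was 0.27 (SE 0.14), with an edgeR adjusted p of 0.701. It was 0.12 without AdSirt4 replicate 1. NES (nestin) had a log2 fold change of 0.22 and NEFM (a neurofilament subunit) of 0.54, with edgeR adjusted p-values of 0.678 for both.

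Of the 20 epithelial regulators and keratin-binding genes 17 could be tested, 10 with a fold change above 0 and 7 below, with a median of 0.06 that turned to -0.04 without AdSirt4 replicate 1. The 3 with the smallest p were ETS2 (a transcription factor), with a log2 fold change of 0.30 (SE 0.10), ESRP1 (an epithelial splicing regulator), with -0.44 (SE 0.15), and KLF5 (a transcription factor of epithelia), with 0.20 (SE 0.088). Their edgeR adjusted p-values were between 0.565 and 0.640. In each of these 3 genes the groups did not overlap, as in 4 of the 17 genes of the list and 19.4% of all genes. Without AdSirt4 replicate 1, edgeR called 1 of the 17, KLF6 (log2 fold change 0.30, adjusted p = 0.0090), named here after its value was seen. With 6.71% of all genes called in that fit, this is no more than the background. With all samples KLF6 had a log2 fold change of 0.20 (edgeR adjusted p = 0.718), and its groups overlapped. The sample left out was its only AdSirt4 value below AdCtrl, so the call is a description and no support.

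**Figure D5:**
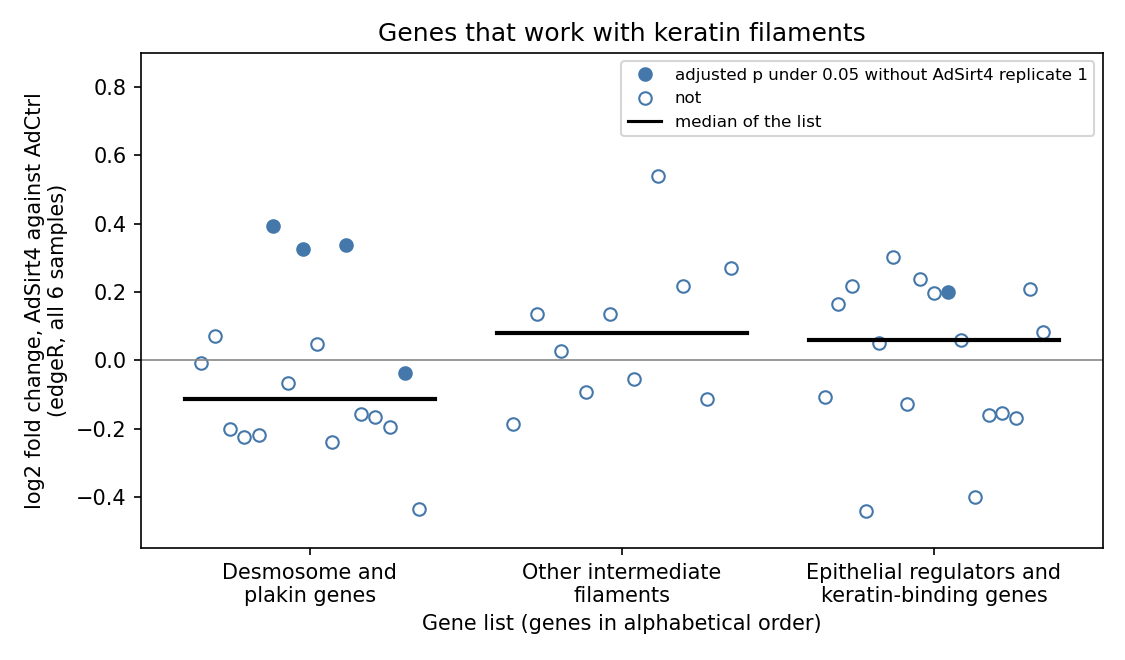
The log2 fold change from edgeR with all 6 samples for the tested genes of the 3 lists, with horizontal lines at the medians. The filled points are genes with an adjusted p under 0.05 without AdSirt4 replicate 1, 4 in the desmosome and plakin list, 0 among other intermediate filaments and 1 among epithelial regulators, in a fit that called 6.71% of all genes. In PLEC, EPPK1 and KLF6 the sample left out was the only AdSirt4 value below AdCtrl, so these points are a description.

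The genes most like a keratin in pattern were looked for among 10352 genes with a mean of 10 CPM or more, by the root mean square difference of centred log2 CPM over the 6 samples. The nearest gene to KRT7 was ERMARD, at 0.021. For KRT15 it was ZNF449, at 0.12. The 6 samples share their library effects, AdSirt4 replicate 1 included, so this likeness is a description.

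The identity of the cells was checked with marker genes. Of 12 proximal tubule markers, 3 (GGT1, MME and SLC5A2) were above 1 CPM in every sample, while SLC22A8 was at 0 in all samples, and LRP2, CUBN, AQP1 and ANPEP were below 0.3 CPM. The summed level of the 12 was 241 to 265 CPM in AdCtrl and 222 to 236 CPM in AdSirt4. Of 6 general kidney epithelial markers, 5 were above 1 CPM throughout, with PAX8 between 208 and 261 CPM, and CDH1 (E-cadherin) was the exception, at 0.504 to 0.869 CPM. The 6 keratinocyte markers summed to at most 0.231 CPM in any sample, with KRT5, KRT14, KRT1 and IVL at 0 counts in every sample. None of the 5 distal nephron and 3 endothelial markers reached 1 CPM in all samples. The distal markers summed to 0.623 to 0.989 CPM in AdCtrl and 0.591 to 0.898 CPM in AdSirt4, with AQP2 at 0 throughout, and the endothelial markers to 0.296 to 0.350 and 0.154 to 0.504 CPM. Of the 6 fibroblast markers, COL1A1 and LUM were above 1 CPM in every sample and COL3A1 was at 0, with sums of 41.7 to 45.1 CPM in AdCtrl and 39.9 to 40.8 CPM in AdSirt4. Of the 2 leukocyte markers, CD68 was above 1 CPM throughout, and the sum was 31.7 to 37.0 CPM in AdCtrl and 36.4 to 46.5 CPM in AdSirt4. Whether these small differences between the groups bear on the keratins was not tested.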

How the data were processed

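Poly-A selected RNA of 6 HK2 samples was sequenced on a DNA nanoball platform. The authors deposited unnormalized whole-number counts for 38100 genes. They also deposited a table without a named unit, which was read as FPKM because its values follow the counts per base and per library in most genes. The submitters' processing notes name fastp 0.21.0, HISAT2 2.1.0, StringTie 2.1.5, DESeq2 1.30.1 and hg38, with no role given. A value of 2 was more frequent in the count table (8577 values) than a value of 1 (2464), so a count may not be 1 read, and count floors are approximate.

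Groups and replicate numbers were taken from the sample titles. Counts were tested with edgeR 4.0.16 in R 4.3.3 (filterByExpr with a minimum count of 10, TMM, robust quasi-likelihood test, Benjamini-Hochberg adjustment over all 17720 genes tested, threshold 0.05). CPM are TMM-scaled. Ratios and sums were tested with two-sided exact permutation tests over samples, which cannot give a p below 0.1 with 3 against 3. Alternatives used DESeq2 1.42.0 and limma 3.58.1. The fit was tried on simulated data before use. These were drawn without an outlying library, a length trend or pairing, so they say nothing about how the fit handles AdSirt4 replicate 1. Transcript lengths and positions came from GENCODE 29 (GRCh38), which gave a length for 14548 of the genes tested. Sequences were handled with Biopython 1.88 and figures drawn with matplotlib 3.10.9.

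The 10 keratins, the gene lists and the tests were chosen with earlier results of these data known. Named besides the members were the 3 genes of smallest p in each list, VIM, and the nearest gene in pattern for up to 3 members. Some items that meet these rules are not reported here. Same-numbered samples of the 2 groups deviated together (Pearson r across genes 0.178, 0.159 and 0.176, other pairs -0.188 to 0.030). Deviations were taken from the mean of each group of 3, so positive values in some pairs push others down. The replicate number was taken to pair the samples and was used as a block in an alternative fit. The fit reported and the permutation p-values given do not use this pairing. Replicates were not copies of each other (chi-square 9.36 to 213 per gene).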

Additional observations from a re-analysis of the deposited data

How the results depend on the processing

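Each keratin was refitted under up to 18 alternatives. KRT7, KRT15 and KRT81 kept their direction and stayed without a call in all that could be run. KRT80 kept its direction and was called without AdSirt4 replicate 1 (log2 fold change 0.33) and with limma voom quality weights (0.33). The directions of other keratins turned: without AdSirt4 replicate 1 for KRT8 (-0.086), KRT10 (-0.012), KRT18 (-0.072) and KRT19 (-0.16), with quality weights for KRT8 (-0.048), KRT18 (-0.057), KRT19 (-0.16) and KRT34 (-0.0067), with the length trend removed for KRT19 (-0.00050, or -0.0070 with the replicate block), and without AdCtrl replicate 3 for KRT34 (-0.055). With single samples left out, the highest values were 0.20 for KRT8, 0.41 for KRT10, 0.27 for KRT18, 0.28 for KRT19 and 0.61 for KRT34. None of these had an adjusted p under 0.05, and the cause was not tested.

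Leaving out 1 sample moved the log2 difference of the summed keratins between -0.0017 and 0.20. The log2 ratio of KRT19 to KRT18 lay between -0.10 and 0.032, turning without AdCtrl replicate 1. That of KRT80 to KRT7 lay between -0.19 and 0.21, turning without AdSirt4 replicate 1. That of KRT81 to KRT34 lay between -0.17 and 0.46, turning without AdCtrl replicate 1 and without AdSirt4 replicate 2 or 3.

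Calls over all genes, 2 in the fit reported, were 212 with DESeq2, 5 with every gene of at least 1 count, 4 with at least 10 counts in every sample, 1 with the replicate block, 0 by limma on log2(FPKM + 1) with or without the block (1643 and 1440 genes at an unadjusted p under 0.05), 1 by limma on log2(FPKM + 0.1), 5 by limma on those whose mean FPKM reached 1, 5 with the length trend removed, 1 with that and the block, and 1549 with quality weights. Leaving out 1 sample gave between 0 and 1227. Keratins called were 1 with quality weights and 0 to 1 with 1 sample left out. Calls among the filament partners, 0 in the fit reported, were 1 with DESeq2, 7 with quality weights and 0 to 5 with 1 sample left out. The replicate block gave 0 calls among keratins and changed no other call of a keratin or partner. A difference in KRT17 or KRT34 is limited by their counts, which were at most 22 per sample.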
